A study of Mus musculus with 60 samples.

Results

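The 10 astrocyte marker genes on the neuroinflammation panel were Aldh1l1, Gja1, Kcnj10, Sox9, S100b, Gdpd2, Itga7, Egfr, Entpd2 and Agt. They were taken by gene symbol from the 770 genes of the normalized matrix, with no filter on their values, and all 10 symbols were found. The list itself was chosen with earlier results of these data known. Female Balb/C mice received 67NR cells in the inguinal mammary glands, or the DMEM vehicle alone. The 67NR line, grown out of 1 mouse tumor (Balb/cfC3H), forms mammary carcinomas without metastases. They were killed at 13 weeks of age, 25 days after the injection, at ZT19 (mid-dark) or at ZT7 (mid-light) of a 14 h light and 10 h dark cycle. The 4 groups were tumor-bearing and vehicle injected mice at each phase, 5 mice in each and 20 in all, and RNA came from the hippocampus (HPC), hypothalamus (HYP) and brain stem (BS) of each mouse. All groups shared strain, sex and age, and every tumor was a graft of this 1 line. Values existed for 56 of the 60 samples listed, 20 from HPC, 17 from HYP and 19 from BS. Of the vehicle injected mice, HYP values were missing for 2 at mid-dark and 1 at mid-light, and a BS value for 1 at mid-dark.

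Astrocytes take up potassium and glutamate released by neurons, couple to one another through gap junctions, and line vessels with their end-feet. Among the markers, Aldh1l1 is an enzyme of folate metabolism and Sox9 a transcription factor, both used to identify astrocytes throughout the brain. Gja1 is a gap junction connexin, Kcnj10 an inwardly rectifying potassium channel, and S100b a small calcium-binding protein. Entpd2 breaks down extracellular nucleotides, Gdpd2 is a glycerophosphodiester phosphodiesterase family member, Itga7 an integrin subunit for laminin, Egfr a growth factor receptor and Agt angiotensinogen, the precursor of the angiotensins. Several are also made by other cells: Kcnj10 and S100b by oligodendrocytes, Itga7 by vascular smooth muscle, and Sox9 by choroid plexus epithelium.

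All values below are normalized log2 values per sample. A difference of 1, and any fold given, refers to the normalized value and is not a measured ratio of RNA amounts. Levels are compared between samples and not between genes. The members lay between 6.67 and 13.68, and none was at the lowest value of the table in any sample. In bulk tissue, fewer cells of a type and less RNA per cell cannot be told apart. The HPC sample of mouse 7 (tumor-bearing, mid-dark) stood apart, with a root mean square deviation of 0.467 from the region's medians against at most 0.407 in the other HPC samples, and a summed oligodendrocyte marker level of 14.74 against 15.36 to 16.05. The choroid plexus gene Ttr was below 8 in 5 of 20 HPC, all 17 HYP and 4 of 19 BS samples, and reached 14.71 elsewhere. The first absorbance ratio that the labels give for RNA purity was under 1.8 in 6 samples. Of these, 4 were BS samples of tumor-bearing mice (1.34 to 1.68), and none was from HYP. The labels also give a second ratio, which was lowest in the HYP samples of tumor-bearing mice 1 and 7. That of mouse 1 had the largest root mean square deviation in HYP (0.361). Purity ratio below means the first, so both HYP samples were kept when samples of low ratio were left out. The effect of the second ratio was not tested.

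The first comparison was between regions, each averaged over the 4 tumor by phase groups with the mouse as a random block (limma, Benjamini-Hochberg over all genes). In HYP, 9 of the 10 members were higher than in HPC and Itga7 was lower, all with an adjusted p under 0.05. In BS, 8 members were higher than in HPC, Itga7 was lower, and Sox9 was not called (difference 0.07, 95% interval -0.01 to 0.16, adjusted p = 0.0959). Between BS and HYP, Aldh1l1, Kcnj10, S100b and Itga7 were higher in BS, Gdpd2, Entpd2 and Agt were lower, and Gja1, Sox9 and Egfr were not called. Region differences were common on the whole panel: 71.7% of genes were called between HYP and HPC, 76.6% between BS and HPC and 66.5% between BS and HYP. By direction, 41.4% of panel genes were called higher and 30.3% lower in HYP than in HPC, 41.7% higher and 34.9% lower in BS than in HPC, and 30.4% higher and 36.1% lower in BS than in HYP. The median difference of the members was 0.56 between HYP and HPC and 0.50 between BS and HPC, against medians over all genes of 0.05 and 0.03. Between BS and HYP it was 0.03, against -0.02 over all genes.

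**Figure D1:**
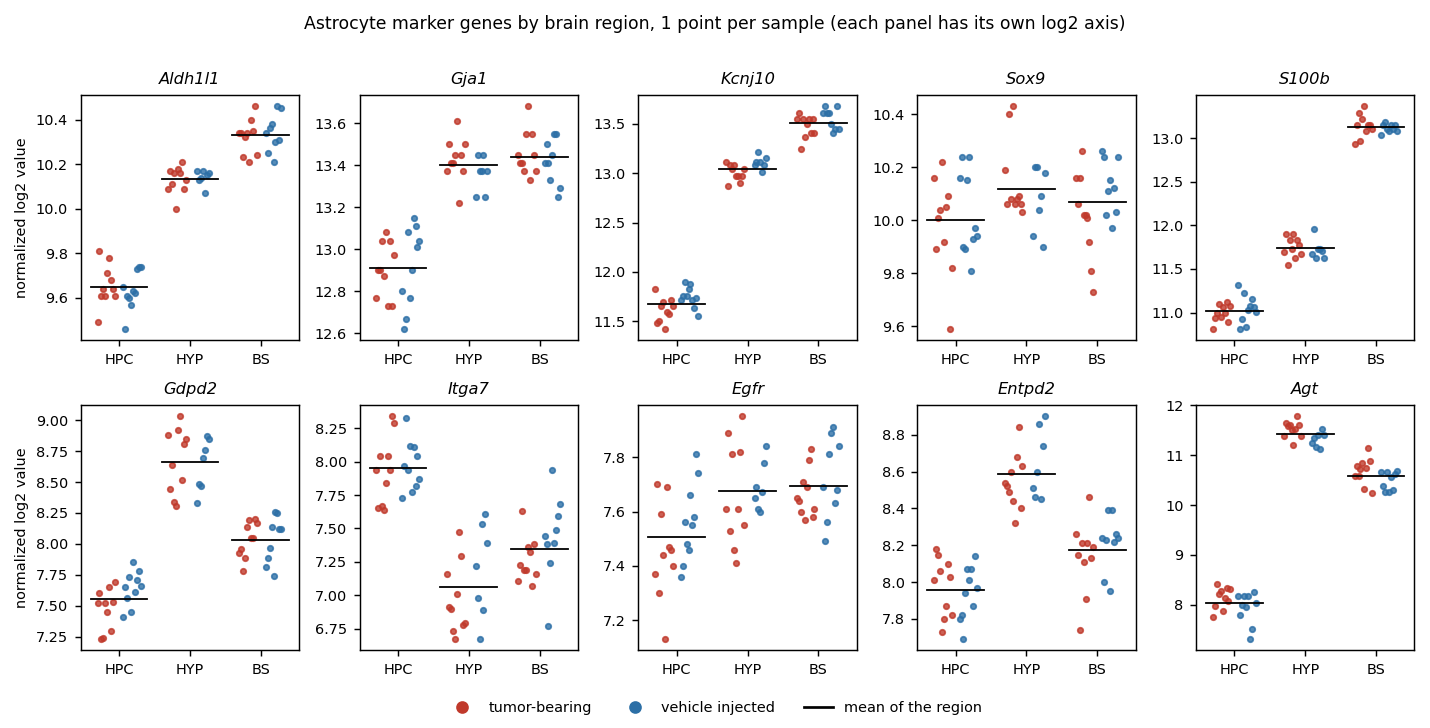
Normalized log2 value of each of the 10 markers in every sample of the hippocampus (HPC), hypothalamus (HYP) and brain stem (BS), with tumor-bearing mice in red, vehicle injected mice in blue and the region mean as a line. Agt in HPC stays at or below 8.42 and reaches 11.78 in HYP, S100b rises in steps from HPC to BS, and the Sox9 values of the regions overlap.

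Agt had the largest regional difference among the members and the 12th largest of the 770 genes. Its lowest, median and highest levels were 7.31, 8.10 and 8.42 in HPC, 11.12, 11.40 and 11.78 in HYP, and 10.25, 10.63 and 11.14 in BS. The regions did not overlap, except that BS reached just above the lowest HYP sample. HYP exceeded HPC by 3.37 (SE 0.07, adjusted p = 1.04e-38), a 10.3-fold ratio of the normalized values, and BS exceeded HPC by 2.55 (SE 0.07). BS was below HYP in all 16 mice with both regions, by 0.82 on average (difference -0.82, SE 0.07, adjusted p = 3.21e-14).

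S100b and Kcnj10 shared an order in which BS was highest and HPC lowest. The lowest, median and highest S100b levels were 10.81, 11.02 and 11.32 in HPC, 11.55, 11.73 and 11.96 in HYP, and 12.94, 13.15 and 13.37 in BS, with no overlap between any regions. BS exceeded HPC by 2.11 (SE 0.04, 4.32-fold) and HYP by 1.39 (SE 0.04, 2.63-fold), the second strongest BS against HYP result of the panel by p. Kcnj10 was 11.42, 11.70 and 11.90 in HPC, 12.87, 13.08 and 13.22 in HYP, and 13.25, 13.55 and 13.68 in BS, again without overlap. HYP exceeded HPC by 1.38 (SE 0.03, 2.61-fold) and BS exceeded HPC by 1.84 (SE 0.03, 3.58-fold), in every mouse with both regions. All 17 oligodendrocyte markers on the panel were also called higher in BS than in HPC and than in HYP, with median differences of 1.5 and 1.26. Between HYP and HPC, where the Kcnj10 difference was 1.38, 11 of them were called higher, 1 lower (Opalin, -0.25) and 5 were not called, with a median of 0.24. Their summed level ranged from 14.74 to 16.05 in HPC, 15.62 to 16.35 in HYP and 16.69 to 16.90 in BS, and their part in the S100b and Kcnj10 differences was not tested. Of the other cell types, 12 and 13 of 13 microglial markers were called lower in HYP and BS than in HPC, and 4 and 7 of 9 endothelial markers higher. Of 14 neuronal markers, 4 were called higher and 10 lower in HYP than in HPC, and 3 higher and 10 lower in BS than in HPC.

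Aldh1l1 and Gja1 had smaller steps. Aldh1l1 ran from 9.46 to 9.81 in HPC (median 9.63), from 10.00 to 10.21 in HYP (median 10.15) and from 10.21 to 10.46 in BS (median 10.34), so that only HYP and BS touched. BS exceeded HPC by 0.69 (SE 0.02) and HYP by 0.19 (SE 0.03, adjusted p = 3.89e-09), the latter in 16 of 16 mice. Gja1 ran from 12.62 to 13.15 in HPC, from 13.22 to 13.61 in HYP and from 13.25 to 13.68 in BS. HYP exceeded HPC by 0.49 and BS exceeded HPC by 0.53 (SE 0.04 each), while BS and HYP did not differ beyond their spread (0.04, 95% interval -0.04 to 0.12).

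Gdpd2 and Entpd2 were highest in HYP. Gdpd2 ran from 7.23 to 7.85 in HPC (median 7.58), from 8.31 to 9.03 in HYP (median 8.69) and from 7.74 to 8.26 in BS (median 8.05), and HYP did not overlap the other regions. HYP exceeded HPC by 1.08 (SE 0.05, 2.12-fold), and BS was below HYP by 0.61 (difference -0.61, SE 0.05) in all 16 mice. Entpd2 ran from 7.69 to 8.18 in HPC, from 8.32 to 8.90 in HYP and from 7.74 to 8.46 in BS. HYP exceeded HPC by 0.63 (SE 0.05), BS exceeded HPC by 0.22 (SE 0.05, adjusted p = 6.10e-05), and BS was lower than HYP (difference -0.41, SE 0.05).

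Itga7 was the one member with its highest level in HPC. It ran from 7.64 to 8.34 in HPC (median 7.94), from 6.67 to 7.61 in HYP (median 6.98) and from 6.77 to 7.94 in BS (median 7.36). HYP was lower than HPC in 17 of 17 mice (difference -0.89, SE 0.07, adjusted p = 1.22e-15) and BS was lower in 18 of 19 (difference -0.62, SE 0.07). The BS and HYP ranges overlapped broadly, and the difference of 0.27 (SE 0.07, adjusted p = 0.00102) fell short of the threshold when vehicle injected mice alone were used.

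Egfr and Sox9 varied least between regions, ranking 655th and 727th of the 770 genes by the spread of the region means. Egfr ran from 7.13 to 7.81 in HPC, from 7.41 to 7.95 in HYP and from 7.49 to 7.91 in BS, and exceeded HPC by 0.17 in HYP (SE 0.04, adjusted p = 0.000685) and by 0.18 in BS (SE 0.04, adjusted p = 0.000114). Sox9 had medians of 9.99 in HPC, 10.08 in HYP and 10.06 in BS within a common range of 9.59 to 10.43. Its HYP minus HPC difference was 0.11 (SE 0.04, adjusted p = 0.0168), higher in HYP in 12 of 17 mice, and was not called without mouse 28 (adjusted p = 0.0759) or in vehicle injected mice alone. In HPC, Sox9 lay between 9.59 and 9.90 (median 9.89) in the 5 samples with Ttr below 8 and between 9.82 and 10.24 (median 10.05) in the other 15. The part of Ttr-expressing tissue in the regional Sox9 difference was not tested.

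**Figure D2:**
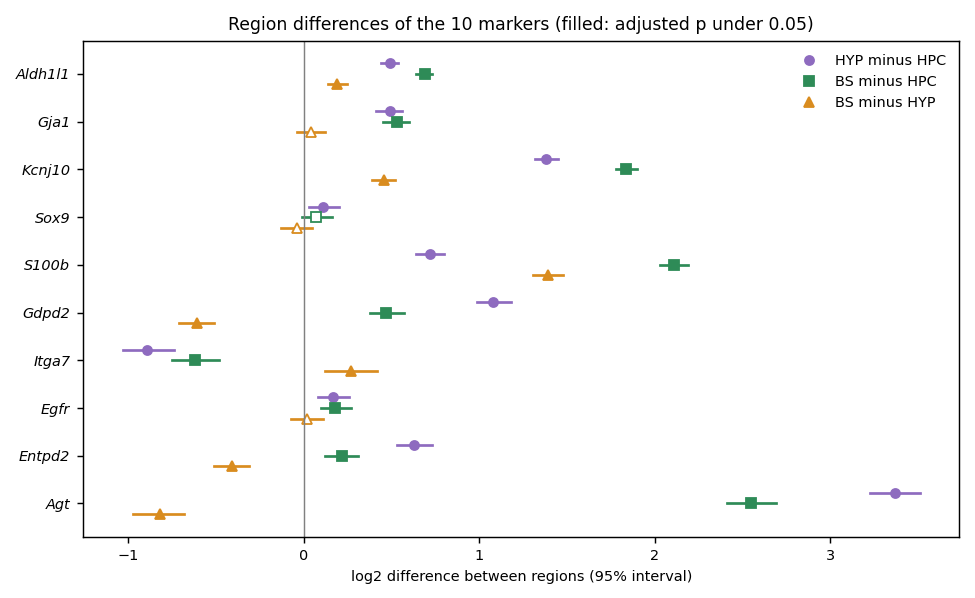
Difference in normalized log2 value between regions (HYP minus HPC, BS minus HPC, BS minus HYP) for each marker, with 95% intervals and filled symbols for an adjusted p under 0.05. Agt, S100b and Kcnj10 reach 3.37, 2.11 and 1.84, Itga7 is the only marker below 0 against HPC, and Sox9 and Egfr lie close to 0.

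RefSeq promoters, 250 bases before to 50 after a transcription start in GRCm38.p6, were given for 8 of the 10 members and not for Sox9 and Itga7. Those of the 3 members with the widest regional range and of Gdpd2, the member with the clearest phase difference below, are shown because these genes carry the results. Capitals mark ACAAT, the core that Sox factors recognise, CACGTG, the E-box bound by the clock factors, and TTGGC, a half-site of nuclear factor I, on either strand.
Agt, chr8:124569657-124569956, minus strand: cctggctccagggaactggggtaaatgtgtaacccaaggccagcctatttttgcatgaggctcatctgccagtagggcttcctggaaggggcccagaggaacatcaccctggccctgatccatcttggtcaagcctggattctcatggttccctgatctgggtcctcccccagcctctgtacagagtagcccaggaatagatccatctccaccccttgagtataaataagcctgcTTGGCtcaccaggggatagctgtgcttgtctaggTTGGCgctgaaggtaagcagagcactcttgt
S100b, chr10:76253586-76253885, plus strand: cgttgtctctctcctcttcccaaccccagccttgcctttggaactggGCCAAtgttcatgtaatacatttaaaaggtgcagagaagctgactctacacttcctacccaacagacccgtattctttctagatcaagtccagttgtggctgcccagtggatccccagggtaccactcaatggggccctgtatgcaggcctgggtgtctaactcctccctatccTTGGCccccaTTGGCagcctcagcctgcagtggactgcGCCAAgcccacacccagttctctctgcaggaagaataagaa
Kcnj10, chr1:172340960-172341259, plus strand: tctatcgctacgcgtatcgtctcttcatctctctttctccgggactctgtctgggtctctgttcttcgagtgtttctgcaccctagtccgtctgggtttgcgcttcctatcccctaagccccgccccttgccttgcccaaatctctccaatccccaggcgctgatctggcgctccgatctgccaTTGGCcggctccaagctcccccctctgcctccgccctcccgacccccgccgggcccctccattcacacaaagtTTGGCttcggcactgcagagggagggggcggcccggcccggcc
Gdpd2, chrX:100729597-100729896, plus strand: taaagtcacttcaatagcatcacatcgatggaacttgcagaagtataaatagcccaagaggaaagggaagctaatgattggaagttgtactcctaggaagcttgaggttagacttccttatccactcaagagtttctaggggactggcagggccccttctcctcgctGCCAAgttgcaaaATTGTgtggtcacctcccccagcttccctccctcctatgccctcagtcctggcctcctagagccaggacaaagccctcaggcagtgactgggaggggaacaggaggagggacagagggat

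TTGGC was found on either strand 4 times in the S100b promoter, 2 times in those of Agt and Kcnj10, and once in that of Gdpd2, without overlap between matches. Of the other members with a promoter, Entpd2 held TTGGC 2 times and Egfr once, and Aldh1l1 and Gja1 held none. At least 1 TTGGC was found in 46.7% of the 32851 promoters of this length. ACAAT was found once, in Gdpd2, and in 31.0% of all promoters. CACGTG was found in none of the 4 and in 7.15% of all. The Gdpd2 and Kcnj10 windows had GC contents of 52.0% and 63.7%. Gdpd2 has a second start in the table, at chrX:100729936-100730235, whose window held none of the 3 motifs.

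Other astrocyte genes did not follow 1 regional order. Of 17 further astrocyte genes listed, 8 were on the panel (Slc1a3, Grm3, Mfge8, Sall1, Amigo2, Serpinf1, Apoe and Nwd1). Which cells of the bulk tissue made these 8 was not tested, so their differences need not be those of astrocytes. In BS against HPC, 1 was called higher (Sall1, 0.43) and 5 lower, among them Mfge8, a bridging protein for engulfment (difference -1.56, SE 0.05), and the glutamate transporter Slc1a3 (difference -0.79, SE 0.06). In HYP against HPC, 3 were higher and 4 lower, led by Amigo2, an adhesion protein (1.35, SE 0.07), and Mfge8 (difference -0.64). In BS against HYP, 3 were higher and 4 lower, and Amigo2 differed most (difference -1.94, SE 0.08). The median difference of the 8 was -0.14 in BS and -0.09 in HYP against HPC, opposite in sign to that of the 10 members. Their summed level ranged from 14.98 to 15.26 in HPC, 15.27 to 15.53 in HYP and 14.64 to 15.16 in BS.

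Among genes described as markers of reactive astrocytes, regional differences also went both ways. Of the pan-reactive genes, 11 of 13 were on the panel: 7 were higher and 2 lower in HYP than in HPC, and 5 higher and 3 lower in BS than in HPC. The largest were Serpina3n, a secreted serpin (difference -1.44 in BS and -1.10 in HYP against HPC), and the small heat shock protein Hspb1 (1.25 in BS against HPC). Of the A1 genes, 8 of 12 were on the panel, with 7 higher in HYP than in HPC and 6 higher in BS than in HPC, and the glucocorticoid-induced Fkbp5 lower in both (differences -1.01 and -1.18). Amigo2 is also 1 of these 8 and was the other A1 gene lower in BS. Of the 12 A2 genes, all on the panel, 4 were higher in each of HYP and BS than in HPC, 3 lower in HYP and 4 lower in BS, led by the prostaglandin synthase Ptgs2 (differences -4.33 and -4.09), a gene that forebrain neurons also express.

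Over the 12 region by tumor by phase group means, the non-member with the most similar profile was Lfng for Agt (Pearson r = 0.997), Lgmn for Aldh1l1 (0.995), Csk for Kcnj10 (0.995) and St3gal6 for S100b (0.995). It was Tpd52 for Gja1 (0.989), Rps9 for Gdpd2 (0.989), Prkar1a for Entpd2 (0.973), Ezh1 for Itga7 (0.942), Asb2 for Egfr (0.934) and Cldn5 for Sox9 (0.847). These coefficients describe 12 means that share libraries and are dominated by the region differences, with the best of 760 candidates named. The weakest were those of Itga7, Egfr and Sox9.

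The second question was whether the markers differed between tumor-bearing and vehicle injected mice. Over the 3 regions jointly (limma, 12 group means, mouse as a random block), Kcnj10 was the only member called, at a slightly lower level in tumor-bearing mice. On the panel, 2.34% of genes were called in this comparison and 0.39% were called lower. No member was called within a single region or within a single region and phase. Agt leaned to higher levels in tumor-bearing mice in each region but was not called.

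The lowest, median and highest Kcnj10 levels in HPC were 11.42, 11.62 and 11.83 in 10 tumor-bearing and 11.55, 11.75 and 11.90 in 10 vehicle injected mice. In HYP they were 12.87, 13.01 and 13.11 (n = 10) against 13.01, 13.11 and 13.22 (n = 7). In BS they were 13.25, 13.52 and 13.61 (n = 10) against 13.41, 13.61 and 13.68 (n = 9). The groups overlapped in each region, with the tumor-bearing median lower in each. Over the 3 regions the difference was -0.11 (SE 0.03, 95% interval -0.17 to -0.05, adjusted p = 0.0404), a fold of 1.08. Within regions it was -0.14 in HPC (p = 0.0192, adjusted p = 0.625), -0.11 in HYP (p = 0.0235, adjusted p = 0.452) and -0.09 in BS (p = 0.0970, adjusted p = 0.874), and exact two-sided permutation tests within phase gave p = 0.0149, 0.00454 and 0.104. The mid-dark differences were -0.16 in HPC, -0.10 in HYP and -0.16 in BS. Those of mid-light mice were -0.11, -0.11 and -0.02, and in BS their tumor-bearing median (13.50) was above the vehicle injected median (13.45). At mid-dark in BS, 3 of 5 tumor-bearing samples had a purity ratio under 1.8, against 0 of 4 vehicle injected samples. Under the other settings run, the mid-dark BS difference was -0.19 to -0.10.

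The Kcnj10 call was close to the threshold. It was lost when samples with a purity ratio under 1.8 were left out (adjusted p = 0.123), without the HPC sample of mouse 7 (adjusted p = 0.0703), and when any 1 of mice 1, 2, 7, 8, 9, 11, 12, 22, 23, 28 and 32 was left out. Over all mice left out in turn the difference was -0.13 to -0.10, and the adjusted p reached 0.112. Beside it, the oligodendrocyte markers had a median difference of -0.10 over the 3 regions, with 0 of 17 called and 4 at an unadjusted p under 0.05. With their summed level as a covariate, the Kcnj10 difference was -0.11 (adjusted p = 0.0155).

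Agt in HYP had a lowest, median and highest level of 11.20, 11.55 and 11.78 in 10 tumor-bearing and 11.12, 11.35 and 11.52 in 7 vehicle injected mice. In HPC the levels were 7.76, 8.18 and 8.42 (n = 10) against 7.31, 8.01 and 8.25 (n = 10). In BS they were 10.25, 10.73 and 11.14 (n = 10) against 10.27, 10.56 and 10.69 (n = 9). The ranges overlapped in every region, and the tumor-bearing groups held the highest sample in each. The difference over the 3 regions was 0.21 (SE 0.07, 95% interval 0.07 to 0.34, adjusted p = 0.121), with 0.20 in HPC, 0.21 in HYP and 0.19 in BS. Of the mice left out in turn, it was called without mouse 1 alone (0.24, adjusted p = 0.0367).

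The other 8 members had differences between -0.12 (Itga7) and 0.03 (Gja1) over the 3 regions, with adjusted p from 0.557 to 0.999. The 95% intervals for Aldh1l1 (-0.05 to 0.05) and S100b (-0.08 to 0.08) lay evenly around 0, and that of Gja1 was -0.04 to 0.11. Averaged over phases within a region, 0 of 10 members were called, against 0.52% of genes in HPC, 0.26% in HYP and 1.04% in BS. At an unadjusted p under 0.05 there were 2 members in HPC (Kcnj10 and Gdpd2, -0.17), 2 in HYP (Kcnj10 and Agt) and 1 in BS (Sox9, -0.12), against 6.37%, 7.14% and 6.50% of genes.

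**Figure D3:**
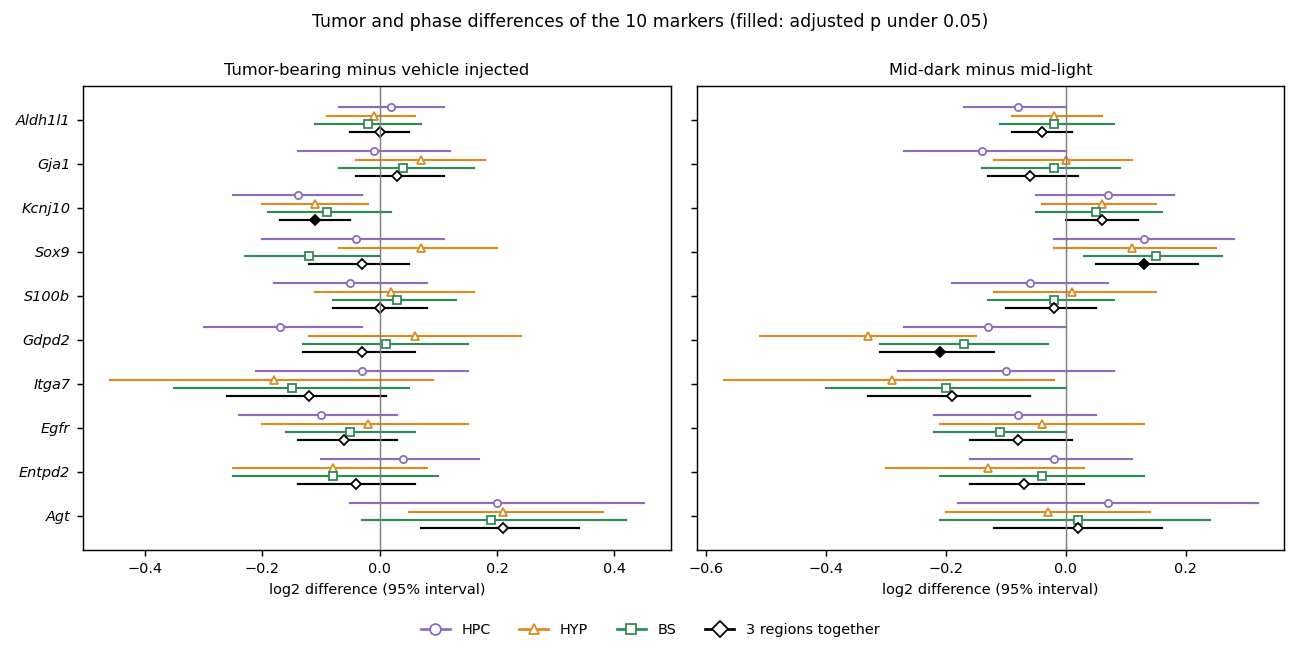
Differences in normalized log2 value for each marker, tumor-bearing minus vehicle injected on the left and mid-dark minus mid-light on the right, in each region and in the 3 regions together, with 95% intervals and filled symbols for an adjusted p under 0.05. Kcnj10 is the only filled symbol on the left, at -0.11, and Gdpd2 and Sox9 are the filled symbols on the right, at -0.21 and 0.13.

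Within 1 phase, 0 of 10 members were called in any region. The panel's share was 0.13% in HPC and 0.0% in HYP for either phase, and in BS 0.26% for mid-dark against 0.78% for mid-light. At an unadjusted p under 0.05, mid-dark gave Kcnj10 in HPC (-0.16) and in BS (-0.16) and Agt in HYP (0.29), against 6.63%, 7.28% and 4.81% of genes. Mid-light gave Egfr (-0.24) and Gdpd2 (-0.20) in HPC, Itga7 (-0.36) and Sox9 (-0.20) in BS and none in HYP, against 6.89%, 4.81% and 5.19% of genes. In BS at mid-light the Sox9 levels of the tumor-bearing mice were 9.73, 9.81, 9.92, 10.01 and 10.02, and those of the vehicle injected mice 9.97, 10.03, 10.12, 10.15 and 10.24. These groups overlapped only through the lowest vehicle injected mouse.

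The tumor differences of the 2 phases were also compared directly, and 0 of 10 members were called in any region, as were 0.0% of genes in each. Itga7 had an unadjusted p under 0.05 in HPC, where the tumor difference at mid-dark was lower than at mid-light (interaction -0.40, SE 0.17), and in BS, where it was higher (0.42, SE 0.19). The shares of genes at that level were 6.11% in HPC, 2.60% in HYP and 3.64% in BS, with adjusted p of 0.662 and 0.999 for Itga7. Between regions, 0 members differed in their tumor difference (0.0% of genes called, 3.77% at an unadjusted p under 0.05), and Gdpd2 had the smallest p (0.0454). For phase, 0 members differed between regions either (0.26% of genes called), and 0 had an unadjusted p under 0.05 (7.40% of genes).

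The reactive astrocyte lists moved through few genes. In the 3 regions together, 3 of the 11 pan-reactive genes were called: Lcn2, a secreted lipocalin, was higher in tumor-bearing mice by 3.23 (SE 0.22), the oncostatin M receptor Osmr was higher by 0.35 (SE 0.06), and Hspb1 was lower (difference -0.30, SE 0.07). The Lcn2 difference starts from a low level: its mean in HPC of vehicle injected mice was 3.53, the lowest of the pan-reactive genes there. Of the A2 genes, 1 of 12 was called, Ptgs2 (0.40, SE 0.10), and 0 of 8 A1 genes and 0 of the 8 other astrocyte genes were, with 1 and 0 at an unadjusted p under 0.05. The list medians were -0.01, -0.04, 0.10 and -0.01 in that order, against -0.01 over all genes. Of 9 endothelial markers, 1 was called higher and 1 lower in this comparison, and 5 had an unadjusted p under 0.05. Of 13 microglial, 14 neuronal and 17 oligodendrocyte markers, 0 were called. Which cells of the bulk tissue made Lcn2, Osmr, Hspb1 and Ptgs2 was not tested.

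The third question was whether the markers differed with time of day. With the 3 regions together, Gdpd2 was lower and Sox9 higher at mid-dark than at mid-light, and Itga7 lay just outside the threshold with lower levels at mid-dark. On the panel 13.5% of genes were called, 8.05% higher and 5.45% lower at mid-dark, so 2 of 10 members is near the panel's share. Within regions 0 members were called, against 5.59% of genes in HPC, 2.34% in HYP and 4.94% in BS. As counts these were 43, 18 and 38 genes, and with each mouse left out in turn they ranged from 27 to 51, 11 to 21 and 25 to 42. At an unadjusted p under 0.05 there were 2 members in each region, Gdpd2 in all of them with Gja1 in HPC (-0.14), Itga7 in HYP (-0.29) and Sox9 in BS (0.15), against 18.7%, 13.2% and 15.9% of genes.

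The lowest, median and highest Gdpd2 levels in HYP were 8.31, 8.45 and 8.88 in 8 mid-dark mice and 8.52, 8.85 and 9.03 in 9 mid-light mice. In HPC they were 7.23, 7.52 and 7.73 against 7.30, 7.66 and 7.85 (n = 10 each), and in BS 7.78, 7.93 and 8.14 (n = 9) against 7.74, 8.14 and 8.26 (n = 10). The mid-light median was higher in each region and the ranges overlapped. In HYP of vehicle injected mice the phases did not overlap, 8.33, 8.47 and 8.48 in the dark and 8.69, 8.76, 8.85 and 8.87 in the light. The difference over the 3 regions was -0.21 (SE 0.05, 95% interval -0.31 to -0.12, adjusted p = 0.000975), a fold of 1.16. Within regions it was -0.33 in HYP (adjusted p = 0.0536), -0.17 in BS (adjusted p = 0.205) and -0.13 in HPC (adjusted p = 0.262), and exact two-sided permutation tests within tumor status gave p = 0.00215, 0.0278 and 0.0462. Over the 3 regions it stayed called when any 1 mouse was left out (adjusted p up to 0.00596).

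Sox9 in BS had a lowest, median and highest level of 10.02, 10.16 and 10.26 in 9 mid-dark mice and 9.73, 10.02 and 10.24 in 10 mid-light mice. In HPC the levels were 9.89, 10.09 and 10.24 against 9.59, 9.93 and 10.24 (n = 10 each), and in HYP 9.94, 10.20 and 10.43 (n = 8) against 9.90, 10.06 and 10.18 (n = 9). The ranges overlapped in each region and the mid-dark medians were higher. The difference over the 3 regions was 0.13 (SE 0.04, 95% interval 0.05 to 0.22, adjusted p = 0.0282). It was not called when any 1 of mice 6, 8, 13, 22 and 29 was left out (0.11 to 0.12, adjusted p up to 0.0706). Samples with Ttr below 8 numbered 3 of 10 at mid-dark against 2 of 10 at mid-light for HPC, and 1 of 9 against 3 of 10 for BS. With Ttr as a covariate in each region the Sox9 difference was 0.15 (SE 0.03, adjusted p = 0.00180).

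Itga7 had mid-dark and mid-light medians of 7.94 and 7.99 in HPC, 6.91 and 7.29 in HYP, and 7.23 and 7.38 in BS. The difference over the 3 regions was -0.19 (SE 0.07, 95% interval -0.33 to -0.06, adjusted p = 0.0506). The other 7 members had differences between -0.08 (Egfr) and 0.06 (Kcnj10) with adjusted p of 0.216 to 0.888.

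**Figure D4:**
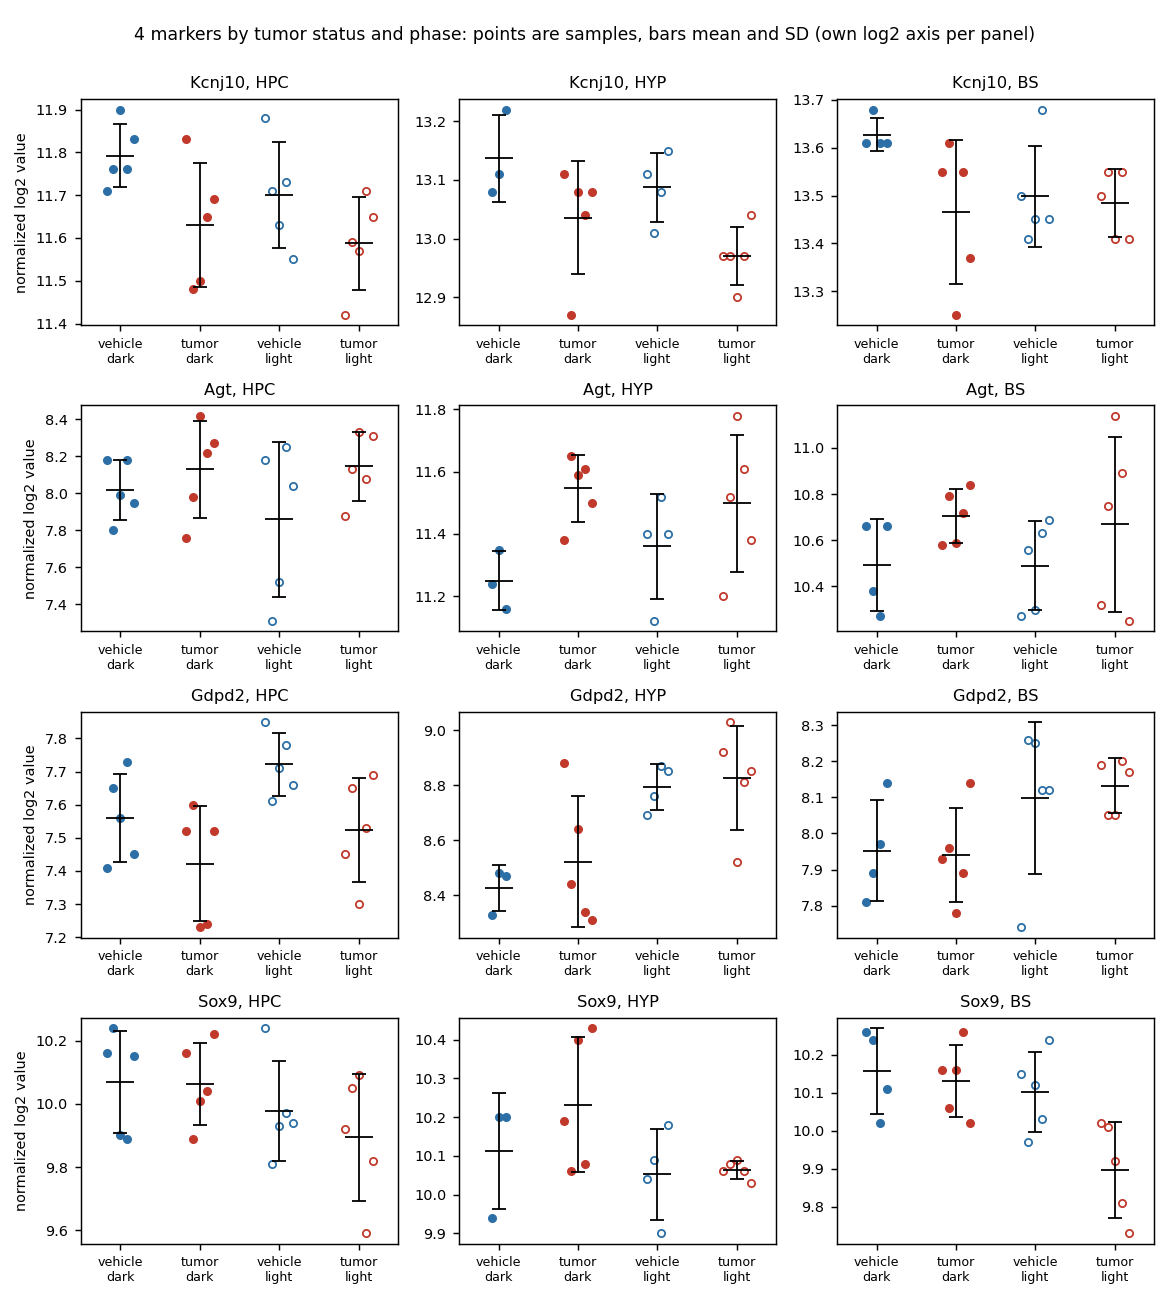
Normalized log2 value of Kcnj10, Agt, Gdpd2 and Sox9 in every sample by tumor status (red, tumor-bearing; blue, vehicle injected) and phase (filled, mid-dark; open, mid-light) in each region, with the mean and SD of each group. Kcnj10 sits lower in tumor-bearing mice and Gdpd2 lower at mid-dark in each region, with overlap between groups.

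Of the 8 other astrocyte genes, Nwd1 was higher at mid-dark by 0.27 (SE 0.03, adjusted p = 8.37e-10) and Sall1, a transcription factor, by 0.13 (SE 0.03, adjusted p = 0.00762), and 0 were lower. Nwd1 was called in each region, at 0.27 in HPC, 0.29 in HYP and 0.25 in BS. Apoe, a lipid carrier, was lower at mid-dark in HPC (difference -0.18, SE 0.04) and Amigo2 higher in BS (0.29, SE 0.08). Of the pan-reactive genes, 1 of 11 was called over the 3 regions, Hspb1 (0.62, SE 0.07), and of the A1 genes 1 of 8, the major histocompatibility gene H2-T23 (difference -0.26, SE 0.09). The A2 list had 0 of 12 called and 2 at an unadjusted p under 0.05. Of the 17 oligodendrocyte markers, 1 was higher and 7 were lower at mid-dark, with a median of -0.11. With their summed level as a covariate, chosen after seeing the data, the Gdpd2 difference was -0.19 (adjusted p = 0.0106). Kcnj10 was then also called, higher at mid-dark by 0.11 (adjusted p = 0.0226), against 0.06 (adjusted p = 0.216) without the covariate. Oligodendrocytes also make Kcnj10 and their markers moved with phase, so this fit does not show that Kcnj10 itself differs with phase.

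Lastly, it was asked whether the markers varied together from mouse to mouse once group means were removed. Over the 45 pairs, the median Pearson r was -0.01 in HPC (n = 20), -0.10 in HYP (n = 17) and -0.03 in BS (n = 19), and 63 of 135 coefficients were positive. None of the 135 passed Benjamini-Hochberg adjustment by Pearson r (two-sided permutation within groups, 100000 draws), and 17 had an unadjusted p under 0.05. The highest was Gja1 with S100b in HPC (r = 0.69, permutation p = 0.00211, adjusted p = 0.186), whose Spearman rho of 0.80 had a permutation p of 8e-05 and passed (adjusted p = 0.0108). The same pair had r = 0.56 in HYP and 0.44 in BS (permutation p = 0.0300 and 0.0458, adjusted p = 0.363 each), and without the 2 samples farthest from the Gja1 median r was 0.66, 0.40 and 0.35. The lowest was Itga7 with Entpd2 in BS (r = -0.69, rho = -0.61, permutation p = 0.00275 and 0.0102, adjusted p = 0.186 and 0.447, r = -0.74 without 2 samples). The Itga7 and Entpd2 coefficient had the opposite sign in HPC (r = 0.18) and HYP (r = 0.52). Signs were the same in all 3 regions for 16 of the 45 pairs, 8 positive and 8 negative. Pairs of other panel genes were not correlated, so no panel share stands beside the 17 of 135 or the 16 of 45. Whether the markers vary together more than other genes do was not tested.

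**Figure D5:**
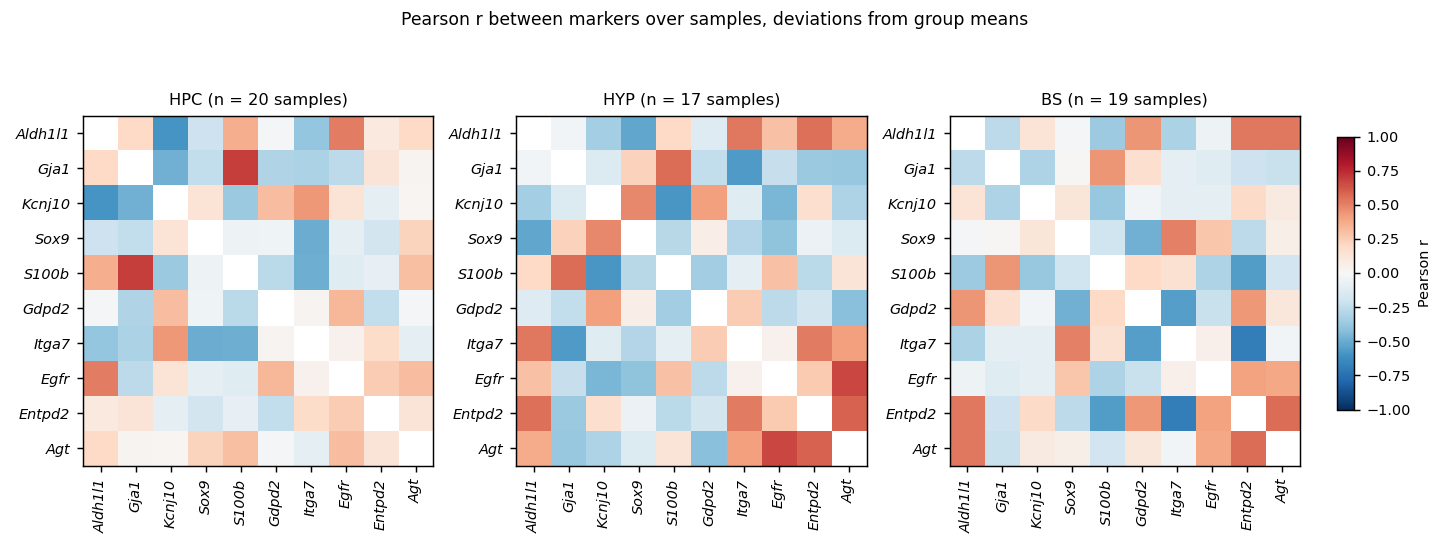
Pearson r between each pair of markers over the samples of a region after subtracting group means, from -1 (blue) to 1 (red), with the diagonal left blank. Positive and negative coefficients are mixed in each region, and Gja1 with S100b is positive in all 3 (0.69, 0.56 and 0.44).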

How the data were processed

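RNA of 3 brain regions of 20 mice was assayed on the nanoString nCounter Mouse Neuroinflammation Panel (770 genes). The authors subtracted the negative control background, normalized to positive controls and to the geometric mean of the CodeSet content in nSolver, left out outlier samples, and normalized further in Partek, and deposited log2 values per sample. Counts per gene were not used here, so depth is unknown. Quantile normalization gives every sample nearly the same distribution (sample medians 8.07 to 8.09), so only differences relative to the other panel genes can be seen. All columns were used, and 0 columns were left out. Groups came from the labels, and no batch is named there.

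Differences were tested with limma 3.58.1 in R 4.3.3, on 4 group means within a region (residual degrees of freedom 16, 13 and 15) or 12 group means over regions with the mouse as a random block, and with Benjamini-Hochberg adjustment over all genes (called: adjusted p under 0.05). Regions of a mouse are paired by its number, and the consensus correlation within a mouse was 0.136. Medians, SDs and exact permutation tests used Python with numpy and scipy. The fits were tested on simulated data. Of genes changed by 0.3, 87% were recovered for tumor minus vehicle over the 3 regions and 67% in the hippocampus. Far more genes were changed in the simulation than were called for tumor here, which eases the adjusted threshold. Recovery of such a difference in the real data can be expected to be lower, by an amount that was not tested. Named genes were the 10 members, the most similar non-member of each, and called genes of the astrocyte lists, at most 5 per list for tumor and phase and at most 3 for region. The members, lists and tests were chosen with earlier results of these data known.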

Additional observations from a re-analysis of the deposited data

Results flagged for a closer look

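In groups of 4 or 5 samples, 110 sets of member values were examined for a sample far from its group, and 6 had a gap larger than Dixon's 95% critical value, while chance flags about 1 in 20. Kcnj10 in BS of vehicle injected mice at mid-dark had 13.68 in mouse 12 and 13.61 in the other 3 (gap over range 1.0). With 3 equal values, any different value in the remaining sample would give this ratio, so the flag carries little weight. Aldh1l1 in BS of tumor-bearing mice at mid-dark was 10.23 in mouse 11 against 10.32 to 10.34 (0.869), and Itga7 in the same mouse and region was 7.63 against 7.11 to 7.23 (0.762). S100b in BS of tumor-bearing mice at mid-light was 13.37 in mouse 1 against 13.08 to 13.15 (0.763). Kcnj10 in HYP of tumor-bearing mice at mid-dark was 12.87 in mouse 7 against 13.04 to 13.11 (0.734). The second absorbance ratio in the labels was the lowest of its group in that sample. Gdpd2 in BS of vehicle injected mice at mid-light was 7.74 in mouse 2 against 8.12 to 8.26 (0.728), and the labelled RNA purity ratio of that sample was 1.72.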

How the results depend on the processing

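The 10, 9 and 7 members called between regions (HYP against HPC, BS against HPC, BS against HYP) were called with no replicate block too. The same held with the mouse as a fixed replicate block. With each mouse left out, the numbers of members called were 9 to 10, 9 to 10 and 7. In BS against HPC the 9 were kept each time, and a count of 10 adds Sox9. For tumor over the 3 regions, 1 member was called with no replicate block (Kcnj10, adjusted p = 0.0121), 0 without samples of low RNA purity ratio, 0 without the HPC sample of mouse 7, and 0 to 1 with each mouse left out. For phase over the 3 regions, 3 were called with no replicate block, with Itga7 added (adjusted p = 0.0171), and 1 to 3 with each mouse left out. Without a block, the regions of 1 mouse count as independent samples. Tumor status and phase differ only between mice, so the p-values of that setting can be too small for both. For phase in HYP, 1 (Gdpd2, against 0) was called after subtracting sample medians or with genes of a mean of at least 5, and 0 to 1 with each mouse left out, as in BS (Gdpd2 without mouse 3 or 9 in HYP and without mouse 2 in BS). For phase in HPC, 1 (Sox9) was called with Ttr as a covariate. In the remaining tumor, interaction and region by factor comparisons 0 members were called under every alternative run, and no difference changed sign among results with a call. Of panel genes, phase calls in BS fell from 38 to 20 without samples of low purity ratio and to 12 with the oligodendrocyte sum as a covariate, and in HPC from 43 to 12 with that sum. Tumor calls in BS went from 8 to 4, at mid-light from 6 to 3 and at mid-dark from 2 to 0 without samples of low purity ratio. At mid-light in BS, 2 were called with ordinary p-values and 1 with the 2 groups alone. With each mouse left out, panel counts moved by over 1.5 times for phase in HPC (27 or 28 without mouse 2, 5, 22 or 32), in HYP (11 without mouse 4, 7, 8, 22 or 28) and in BS (25 without mouse 6). Tumor counts ranged from 12 to 27 over the 3 regions (18 with all mice), 0 to 4 in HYP (2), 1 to 3 in HPC at either phase (1), 2 to 5 in BS at mid-dark (2) and 2 to 6 in BS at mid-light (6). The covariates and the omission of mouse 7 were chosen after seeing the data. The causes were not tested. The matrix holds no counts, so the precision of single low values is unknown.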
